A study of Mus musculus with 4 samples.

Results

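The genes described here encode the enzymes of glycolysis and of the pentose phosphate pathway, the PFKFB enzymes that set glycolytic flux, the oxygen sensors around HIF-1α, and genes that low oxygen induces. They were taken by symbol from a list of 42 names. Of these, 41 had a row among the 23284 gene rows of the count files. The name without a row, Pkm, is the current symbol of the gene that the files call Pkm2. Counts per gene do not separate its M1 and M2 isoforms. RNA had been sequenced from leukemic cells of C57BL/6 mice sorted for high c-Kit, the receptor of stem cell factor on immature blood cells. The cells came from 2 mice of the genotype Msi2 -/-, which lack the RNA-binding protein Musashi 2, and from 2 Msi2 flox/flox mice, whose loxP-flanked gene is intact and which are called controls here. By its title the study concerned leukemia stem cells driven by MLL. The sources used here do not give the start of the leukemia, the Cre that removed Msi2, or the age of the mice.

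Glycolysis splits glucose into pyruvate in the cytosol, and lactate dehydrogenase turns pyruvate into lactate and returns the NAD+ that glycolysis needs. The pentose phosphate pathway branches off at glucose 6-phosphate and yields NADPH and ribose 5-phosphate for nucleotide synthesis. In low oxygen the prolyl hydroxylases of the EGLN family stop marking HIF-1α for destruction through the VHL ubiquitin ligase, and HIF-1α then raises glycolytic and angiogenic genes. Immature blood cells reside in marrow regions of low oxygen and are known for a glycolytic metabolism.

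Each library was 1 mouse, with 87564774 and 78659396 gene counts in the Msi2 -/- libraries and 79845492 and 72273679 in the controls. A count of 3 corresponded to between 0.0343 and 0.0412 CPM, read counts scaled by the TMM-adjusted size of the library. Msi2 had 8 and 17 counts in the Msi2 -/- libraries against 2804 and 3562 in the controls. The markers of immature and MLL leukemic cells were 7 genes. They summed to 3103 and 3157 CPM in the Msi2 -/- libraries and to 5157 and 6065 CPM in the controls. Most of this was Mpo, at 2117 and 2159 CPM in the Msi2 -/- libraries and 4001 and 4953 CPM in the controls. By DESeq2 0 of the list were higher and 2, Mpo and Myb, were lower. The groups overlapped for Hoxa9, Hoxa10, Meis1 and Cd34. Kit was present at 68.1 and 57.1 CPM in the Msi2 -/- libraries and at 50.4 and 51.9 CPM in the controls. Xist, the RNA of the inactive X chromosome, stood at 0.469 and 0.624 CPM in the Msi2 -/- libraries and at 1455 and 654 CPM in the controls, so that sex and genotype cannot be told apart. Late neutrophil markers, of which 11 of 12 listed genes had a row and none was at 0 throughout, summed to 1456 and 2467 CPM in the Msi2 -/- libraries and to 1174 and 870 CPM in the controls, with 4 genes higher and 1 lower by DESeq2. Monocyte and macrophage markers (11 of 12 with a row, none at 0 throughout) summed to 1032 and 2164 CPM in the Msi2 -/- libraries and to 1490 and 1437 CPM in the controls. Most of this sum was Ly6c2, with 942 and 1649 CPM in the Msi2 -/- libraries and 1268 and 1128 CPM in the controls. By DESeq2 1 of the list, Csf1r, was higher (log2 fold change 1.19, adjusted p = 0.00928) and 0 were lower. Erythroid markers were nearly absent, with Hba-a1, Hba-a2 and Slc4a1 at 0 in every library and 9 of 10 under 1 CPM. The part of these marker differences in the values below was not tested. In bulk RNA, fewer cells of a type and less RNA per cell cannot be told apart.

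The tests used called few of these genes different between cells without and with Msi2. By edgeR's quasi-likelihood test with Benjamini-Hochberg adjustment, at an adjusted p under 0.05, 0 of 41 were higher and 0 lower, where 0% of all 13215 tested genes were called higher and 0.00757% lower. Msi2 itself was not called (log2 fold change -8.07, edgeR adjusted p = 0.122). A count of 0 therefore does not show that the members were unchanged. Before adjustment, at p under 0.05, edgeR had 3 members higher, Gpi1, Aldoc and Taldo1, and 1 lower, P4ha1. That is 7.32% and 2.44% of the members, beside 6.69% and 6.17% of all tested genes. DESeq2 called 1 member higher, Taldo1, and 0 lower at an adjusted p under 0.05, beside 3.12% and 2.73% of all genes with an adjusted p. The median log2 fold change, Msi2 -/- minus control, was 0.07 over the members and -0.002 over all tested genes. Over the members it was 0.13 without control replicate 1 and 0.0059 without control replicate 2.

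The members lay within a narrow range. Their log2 fold changes ran from -0.65 for Egln3 to 0.65 for Aldoc, and 2 of 41 exceeded 1.5-fold, beside 15.8% of all tested genes. For 25 members (61.0%) the 95% interval of the log2 fold change lay wholly within 1.5-fold either way, beside 48.2% of all tested genes. It lay within 2-fold for 32 members, beside 66.6% of all tested genes. These shares were not matched for the level of the genes. Both Msi2 -/- libraries lay above both controls for 12 members (29.3%) and below both for 4 (9.76%), beside 23.7% and 24.6% of all tested genes. With 2 mice against 2, an exact permutation test of a single gene cannot go below p = 0.333. For 27 of 41 members the larger within-group SD exceeded the difference of the group means.

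**Figure D1:**
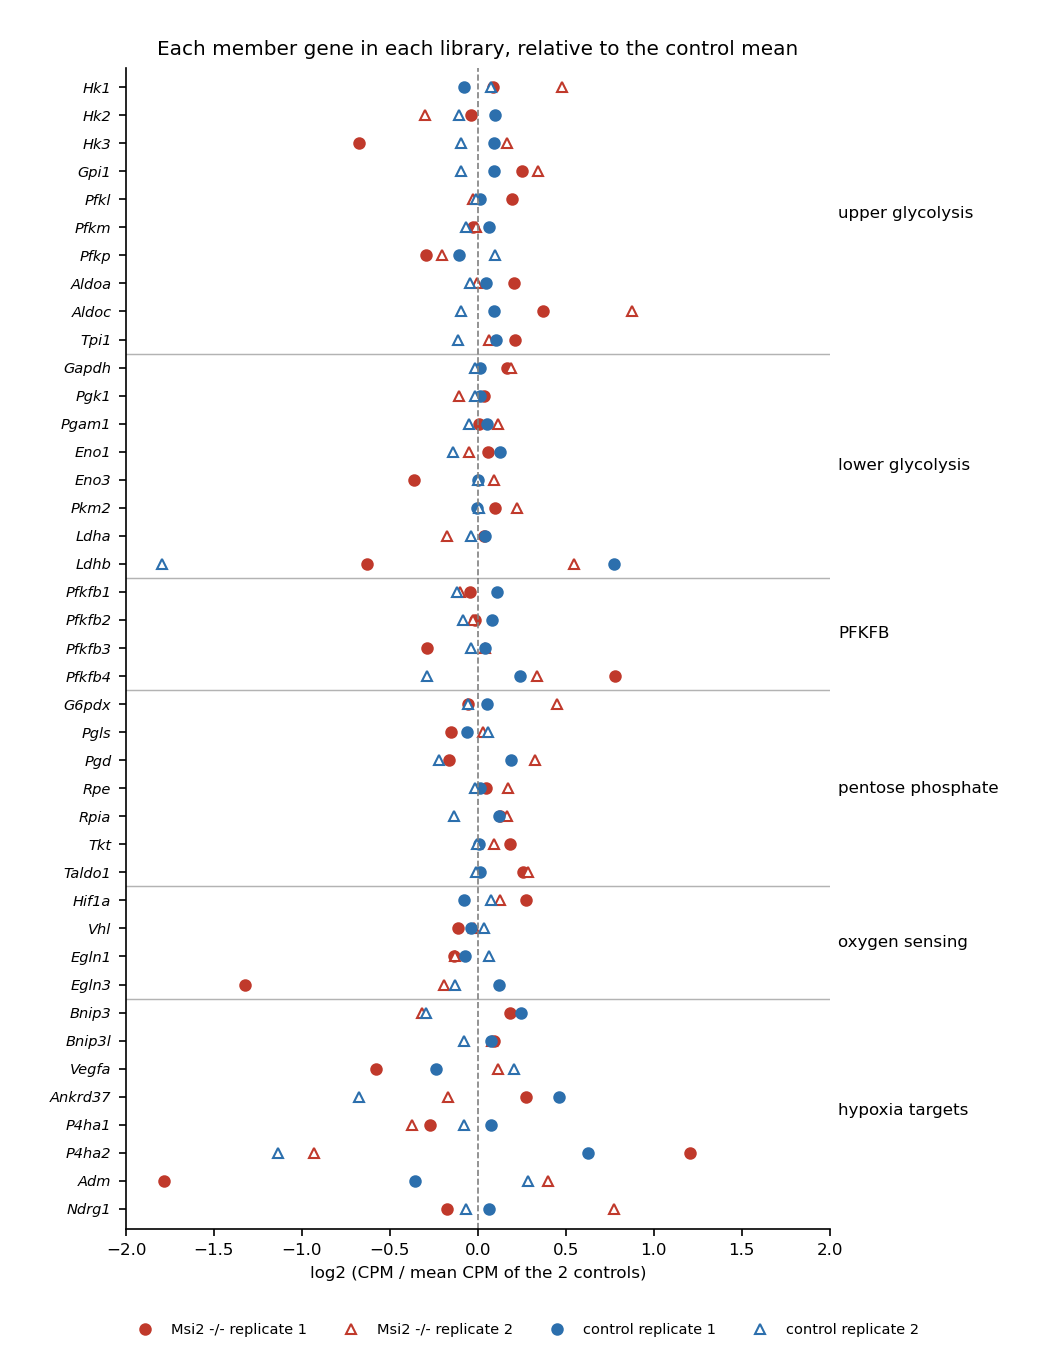
Level of each of the 41 genes in each library as log2 of its CPM over the mean CPM of the controls, with red for Msi2 -/- and blue for control, circles for replicate 1 and triangles for replicate 2. Red points lie to the right of both blue points for 12 genes and to the left of both for 4, and the widest scatter is seen in Ldhb, P4ha2 and Adm, which were counted at under 10 CPM in every library.

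**Figure D2:**
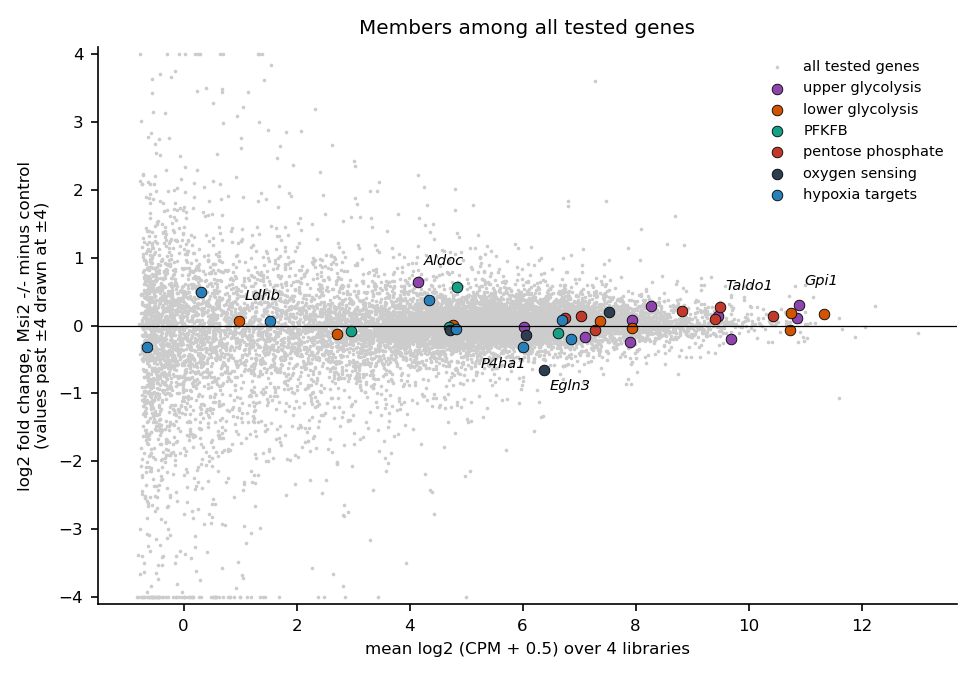
Log2 fold change (Msi2 -/- minus control, edgeR) against mean log2 (CPM + 0.5) for all 13215 tested genes in grey and the 41 members in colour by role. The members run from -0.65 to 0.65, inside the grey cloud.

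The first steps of glycolysis are carried out by hexokinases, which trap glucose as glucose 6-phosphate. Hexokinases 1 and 2 bind mitochondria, and hexokinase 3 is an isoenzyme of myeloid cells. Hk1 had 297 and 390.3 CPM in the Msi2 -/- libraries, against 265 and 295 CPM in the controls. Both Msi2 -/- values lay above the controls, one of them by little, and the log2 fold change was 0.29 (SE 0.156, edgeR adjusted p = 0.482). Hk2, the insulin- and HIF-regulated isoenzyme, had 141 and 118 CPM in Msi2 -/- cells and 155 and 134 CPM in controls. The groups overlapped, at a log2 fold change of -0.16 (95% interval -0.51 to 0.18). Hk3 had 565 and 1012 CPM in the Msi2 -/- libraries and 961 and 845 CPM in the controls. The 2 Msi2 -/- mice thus lay on either side of the controls and differed 1.79-fold from each other, in the same direction as their summed monocyte and macrophage markers. The part of those cells in the Hk3 value was not tested.

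Gpi1, which turns glucose 6-phosphate into fructose 6-phosphate, had 2041 and 2172 CPM in the Msi2 -/- libraries and 1826 and 1604 CPM in the controls. Its groups did not overlap (log2 fold change 0.30, SE 0.097, edgeR unadjusted p = 0.0342 and adjusted p = 0.362, DESeq2 adjusted p = 0.0793). Phosphofructokinase commits sugar to glycolysis and has subunits of liver, muscle and platelet type. Pfkp, the platelet type, had 213 and 227 CPM in Msi2 -/- cells and 243 and 279 CPM in controls. Both Msi2 -/- values lay below both controls, with a log2 fold change of -0.25 (SE 0.097, edgeR adjusted p = 0.403). The groups overlapped for Pfkl at 0.09 (SE 0.098) and Pfkm at -0.02 (SE 0.079), both log2 fold changes.

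Aldolase cleaves fructose 1,6-bisphosphate into trioses. Aldoc, the brain-type isoenzyme, had 17.8 and 25.4 CPM in the Msi2 -/- libraries and 14.7 and 12.9 CPM in the controls. The Msi2 -/- values were both above the controls and unequal (log2 fold change 0.65, SE 0.221, 95% interval 0.05 to 1.24, edgeR unadjusted p = 0.0396 and adjusted p = 0.372, DESeq2 adjusted p = 0.118). Without Msi2 -/- replicate 1 the log2 fold change of Aldoc was 0.89, and without replicate 2 it was 0.37. Aldoa, the main isoenzyme of muscle and blood cells, overlapped between the groups at a log2 fold change of 0.10 (SE 0.101). Tpi1, which interconverts the trioses, overlapped too, at 0.14 (SE 0.109).

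Of the steps from triose to lactate, Gapdh and Pkm2 separated the groups by small amounts. Gapdh, which oxidizes glyceraldehyde 3-phosphate and often serves as a reference gene, had 1815 and 1843 CPM in Msi2 -/- cells and 1635 and 1599.5 CPM in controls. Libraries of a group differed by less than the groups did, and the log2 fold change was 0.18 (SE 0.067, adjusted p = 0.394 by edgeR and 0.0678 by DESeq2). Pkm2, for the pyruvate kinase that makes pyruvate, had 2618 and 2855 CPM in Msi2 -/- cells and 2432 and 2454 CPM in controls (log2 fold change 0.16, SE 0.08, edgeR adjusted p = 0.455). Ldha, which makes lactate, had 1791 and 1549 CPM in the Msi2 -/- libraries and 1796 and 1699.6 CPM in the controls. The groups overlapped, and the 95% interval of its log2 fold change of -0.07 ran from -0.34 to 0.21. The groups also overlapped for Pgk1, Pgam1, Eno1, Eno3 and Ldhb, whose log2 fold changes lay between -0.12 and 0.07. Pgk1, G6pdx and Pfkfb1 are on the X chromosome in the RefSeq annotation. The part of the difference in Xist in their values was not tested.

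Several of these genes have retrocopies in the mouse genome, so that reads can match more than 1 place. Of the 50-base stretches of the longest coding transcript in the GENCODE M21 annotation, 82.5% recur in transcripts of other genes for Gapdh, 72.2% for Eno1, 68.0% for Pgk1, 62.4% for Bnip3, 41.5% for Pgam1 and 34.4% for Pkm2. The share was above 10% for 18 of 41 members and 0% for 17. It counts any other gene on either strand, and not only retrocopies. For Pfkp (17.1%) the only other gene was Pitrm1, and for Rpe (19.1%) it was Kansl1l. Eno1, the enolase of most tissues, had 10.9 and 10.1 RPKM (CPM per kilobase of exon) in the Msi2 -/- libraries and 11.47 and 9.55 RPKM in the controls. Gapdh, of the same pathway, had between 1070 and 1233 RPKM. Reads without a unique alignment had a closing row of their own in the counts, apart from the genes. The levels of these genes are therefore uncertain and may be too low, by an amount that was not measured. Gpi1 shares 25.3% of its stretches with other genes, Taldo1 10.9%, and P4ha1 and Aldoc 0%.

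Among hexokinases, aldolases, enolases and lactate dehydrogenases the same isoenzyme led in all 4 libraries, and among phosphofructokinases it did not. These levels are per length, in RPKM with exon lengths from GENCODE M21, an annotation of GRCm38 and not of the mm9 build of the files. Hk3 had 168 and 302 RPKM in Msi2 -/- cells and 287 and 252 RPKM in controls. Hk1 followed at 61.3 and 80.4 RPKM in Msi2 -/- cells and 54.7 and 60.9 RPKM in controls, and Hk2 was lowest at 25.1 and 20.96 RPKM in Msi2 -/- cells and 27.6 and 23.9 RPKM in controls. No library of 1 hexokinase gene overlapped with another. Pfkl, at 72.6 and 62.1 RPKM in Msi2 -/- cells and 63.9 and 63.0 RPKM in controls, and Pfkp, at 49.6 and 52.8 RPKM in Msi2 -/- cells and 56.5 and 65.0 RPKM in controls, overlapped each other, and Pfkp exceeded Pfkl in control replicate 2. Pfkm was lower than both in every library, at 20.8 to 22.8 RPKM.

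Ldha exceeded Ldhb, the subunit typical of heart, by 1146- and 438-fold in the Msi2 -/- libraries and 434- and 2436-fold in the controls, in RPKM. The spread of this ratio came from Ldhb, with 94 and 187 counts in the Msi2 -/- libraries and 231 and 35 in the controls. Aldoa exceeded Aldoc by 133- and 81.1-fold in Msi2 -/- cells and by 145- and 155-fold in controls. The lower ratios of the Msi2 -/- libraries were those of the higher Aldoc values given above.

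**Figure D3:**
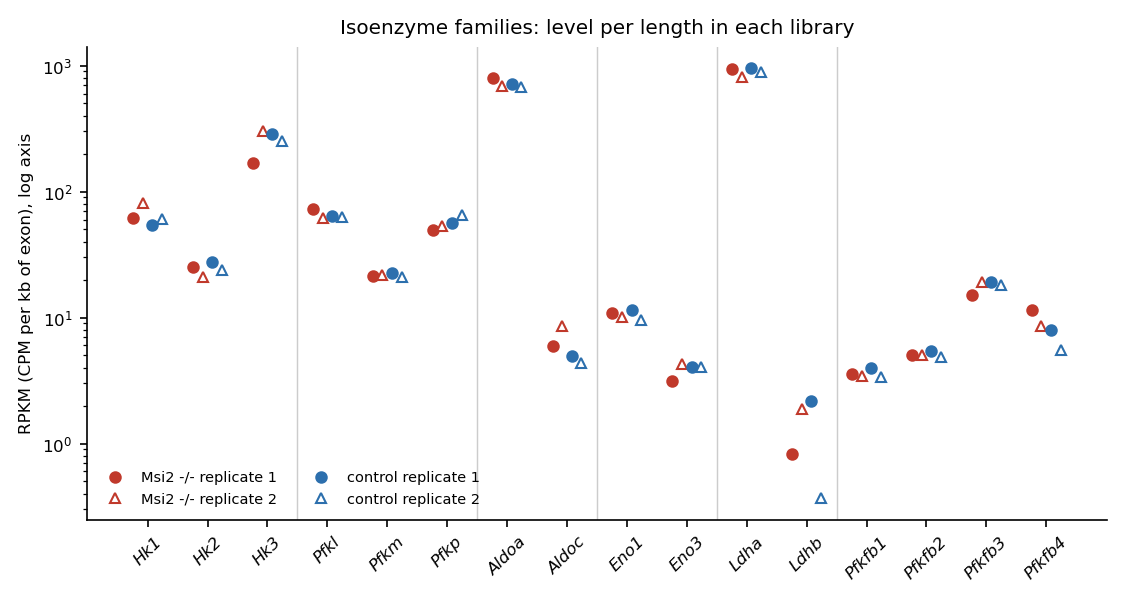
Level per length (RPKM, log axis) of the isoenzymes of 6 families in each library, red for Msi2 -/- and blue for control. Hk3, Aldoa and Ldha stand above their relatives in all 4 libraries, and Ldhb scatters from 0.368 to 2.19 RPKM.

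The PFKFB enzymes make and break fructose 2,6-bisphosphate, the strongest activator of phosphofructokinase. Pfkfb4 had 40.3 and 29.6 CPM in Msi2 -/- cells and 27.7 and 19.2 CPM in controls. The groups did not overlap, but the libraries of a group differed by 1.36-fold within Msi2 -/- and 1.45-fold within controls, beside 1.49-fold between groups (log2 fold change 0.57 with SE 0.255, adjusted p = 0.427 by edgeR and 0.244 by DESeq2). Pfkfb3, which mainly makes the activator, had 83.9 and 106 CPM in Msi2 -/- cells and 105 and 99.7 CPM in controls. The groups overlapped for it, as they did for Pfkfb1 and Pfkfb2, and the 3 log2 fold changes lay between -0.11 and -0.02. Per length Pfkfb3 was the highest of the family, with 15.2 and 19.1 RPKM in Msi2 -/- cells and 19.1 and 18.1 RPKM in controls, and Pfkfb4 came next.

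The pentose phosphate genes included the only member that DESeq2 called. Taldo1 encodes transaldolase, an enzyme of the non-oxidative branch that shuttles carbons between pentoses and glycolytic sugars. It had 783 and 798 CPM in the Msi2 -/- libraries, against 660.3 and 651 CPM in the controls. The libraries differed by 1.02-fold within Msi2 -/- and 1.01-fold within controls, and by 1.21-fold between groups (log2 fold change 0.27, SE 0.064, 95% interval 0.10 to 0.44). DESeq2 gave an adjusted p of 0.00129, edgeR an unadjusted p of 0.0113 and an adjusted p of 0.315. Left without any 1 of the 4 libraries, DESeq2 did not call it, with adjusted p between 0.235 and 0.504 at log2 fold changes between 0.26 and 0.29. The summed late neutrophil markers were higher in the same libraries. By DESeq2 4 of the list were higher, S100a8, S100a9, Ltf and Lcn2, and 1 was lower, Cxcr2. The groups overlapped for Camp, Ngp, Mmp8 and Padi4, so the list did not move together. The part of the late neutrophil markers in the Taldo1 value was not tested.

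The other enzymes of the non-oxidative branch had small positive differences. Tkt, the transketolase that works beside Taldo1, had 1500.2 and 1407.5 CPM in Msi2 -/- cells and 1325 and 1313 CPM in controls (log2 fold change 0.14, SE 0.072, edgeR adjusted p = 0.470). Rpe, the ribulose phosphate epimerase, and Rpia, the ribose 5-phosphate isomerase, also did not overlap between groups, at log2 fold changes of 0.11 (SE 0.075) and 0.14 (SE 0.106). Over the 7 pentose phosphate genes, 6 log2 fold changes lay above 0, beside 6574 of all 13215 tested genes, and the median was 0.14. The median was 0.28 without control replicate 1 and 0.05 without Msi2 -/- replicate 2. Against the control mean, on the log2 scale, the median stood at 0.04 in Msi2 -/- replicate 1 and 0.17 in replicate 2. Summed, the 7 genes took 3661 and 4025 CPM in the Msi2 -/- libraries and 3567 and 3317 CPM in the controls.

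The oxidative branch, which makes NADPH, showed unequal Msi2 -/- mice. G6pdx, the glucose 6-phosphate dehydrogenase that starts it, had 403 and 574 CPM in the Msi2 -/- libraries and 435 and 404 CPM in the controls. Pgd, the next dehydrogenase, had 592 and 830.0 CPM in the Msi2 -/- libraries and 757 and 569.7 CPM in the controls. In each case 1 Msi2 -/- library stood highest of all 4 and the other lay at or within the control range. The log2 fold changes were 0.22 for G6pdx (SE 0.188, edgeR adjusted p = 0.651) and 0.10 for Pgd (SE 0.226). Without Msi2 -/- replicate 1 that of G6pdx was 0.46, and without replicate 2 it was -0.06. The summed markers of late neutrophils and of monocytes were also higher in Msi2 -/- replicate 2 than in replicate 1, and their part in these values was not tested. Pgls, the lactonase between them, overlapped at -0.06 (SE 0.096).

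**Figure D4:**
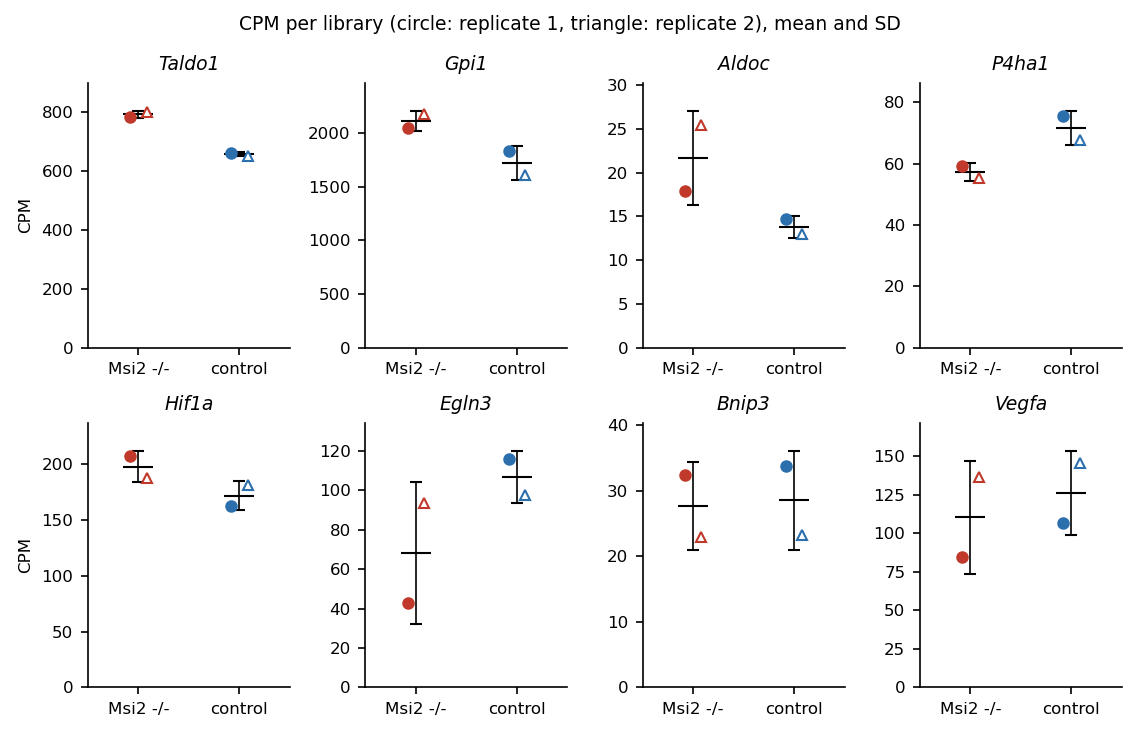
CPM of 8 genes in each library (circle for replicate 1, triangle for replicate 2) with the group mean and SD, Msi2 -/- in red and control in blue. Taldo1 lies at 783 and 798 CPM in Msi2 -/- cells and 660.3 and 651 CPM in controls, while for Bnip3 the libraries of each group lie apart and the groups coincide.

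The oxygen-sensing genes did not pass the tests. Hif1a, for the oxygen-regulated subunit of HIF-1, had 208 and 188 CPM in Msi2 -/- cells and 162 and 181 CPM in controls. The groups did not overlap, and the log2 fold change was 0.20 (SE 0.094, adjusted p = 0.443 by edgeR and 0.371 by DESeq2). HIF-1α is controlled mainly through the stability of the protein, which RNA counts do not measure. Egln1, the main oxygen-dependent prolyl hydroxylase, had 63.2 and 63.4 CPM in Msi2 -/- cells and 66.1 and 72.6 CPM in controls (log2 fold change -0.13, SE 0.08). Vhl, the substrate receptor of the ubiquitin ligase, had a log2 fold change of -0.07 (95% interval -0.36 to 0.22).

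Egln3, a prolyl hydroxylase that HIF itself induces, had the most negative fold change of the members. It had 42.8 and 93.6 CPM in the Msi2 -/- libraries and 116 and 97.6 CPM in the controls. Msi2 -/- replicate 1 was far below the others, and replicate 2 lay just under the lower control (log2 fold change -0.65 with SE 0.396, adjusted p = 0.538 by edgeR). DESeq2 did not call Egln3 with all libraries (adjusted p = 0.379), and called it without Msi2 -/- replicate 2 (adjusted p = 5.38e-11), a comparison of 1 mouse with the controls. Its log2 fold change by DESeq2 ran from -1.32 to -0.18 as each library was left out. The summed monocyte and macrophage markers were also lowest in Msi2 -/- replicate 1, as was Ly6c2, which made up most of the sum. Csf1r and Cd68 of the same list were above both controls in that library. The part of these markers in the Egln3 value was not tested.

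Of the 8 hypoxia-induced genes, P4ha1 alone passed an unadjusted p under 0.05. It encodes the catalytic subunit of collagen prolyl 4-hydroxylase and had 59.3 and 55.2 CPM in Msi2 -/- cells and 75.4 and 67.7 CPM in controls. The groups did not overlap (log2 fold change -0.32, SE 0.091, edgeR unadjusted p = 0.0214 and adjusted p = 0.336, DESeq2 adjusted p = 0.1). Vegfa, for the angiogenic growth factor, had 84.4 and 136 CPM in Msi2 -/- cells and 107 and 145 CPM in controls, with overlap and a log2 fold change of -0.19 (95% interval -0.96 to 0.58). Bnip3l, for a mitophagy receptor, had 106 and 106 CPM in Msi2 -/- cells and 105 and 94.5 CPM in controls (log2 fold change 0.09, SE 0.08). Ndrg1, for a stress-induced protein, had 15.8 and 30.5 CPM in Msi2 -/- cells and 18.6 and 17.0 CPM in controls, and only Msi2 -/- replicate 2 stood out.

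The hypoxia genes Bnip3, Ankrd37, P4ha2, Adm and Vegfa differed more between mice of a group than between groups. Of all 41 members the fold between libraries exceeded the fold between groups for 25 within Msi2 -/- and for 20 within controls. Bnip3, for another mitophagy receptor, had 32.4 and 22.9 CPM in Msi2 -/- cells and 33.8 and 23.2 CPM in controls. The libraries of a group differed by 1.42-fold within Msi2 -/- and 1.46-fold within controls, and the groups by 1.03-fold (log2 fold change -0.04, SE 0.269). Ankrd37, for an ankyrin repeat protein, had 2.92 and 2.14 CPM in Msi2 -/- cells and 3.32 and 1.51 CPM in controls. P4ha2, for a further collagen prolyl hydroxylase subunit, had 1.602 and 0.364 CPM in Msi2 -/- cells and 1.07 and 0.316 CPM in controls. In Bnip3, Ankrd37 and P4ha2 replicate 1 was the high library of each group and replicate 2 the low one. Adm, for the vasodilator peptide adrenomedullin, had 4 and 16 counts in the Msi2 -/- libraries and 10 and 14 in the controls, near the floor of 3 counts. For Ankrd37, P4ha2 and Adm the 95% interval of the log2 fold change reached past 2-fold in both directions.

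The upstream sequences of 4 members are shown because HIF binds a short core that can be read from them, spelled ACGTG or GCGTG. Taldo1 is the DESeq2 call, P4ha1 the hypoxia gene of smallest p, and Bnip3 and Ankrd37 are among the hypoxia genes that varied between mice of a group. Each is the 250 bases before the RefSeq start site, 5′ to 3′ in the direction of the gene, from GRCm38.p6, with either core on either strand in capitals (CACGT and CACGC are the reverse strand).
Taldo1, chr7:141391910-141392159, plus strand: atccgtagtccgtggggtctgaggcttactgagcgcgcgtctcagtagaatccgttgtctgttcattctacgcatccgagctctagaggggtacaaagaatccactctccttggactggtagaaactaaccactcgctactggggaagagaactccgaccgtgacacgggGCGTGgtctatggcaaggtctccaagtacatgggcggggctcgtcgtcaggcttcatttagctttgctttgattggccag
P4ha1, chr10:59323046-59323295, plus strand: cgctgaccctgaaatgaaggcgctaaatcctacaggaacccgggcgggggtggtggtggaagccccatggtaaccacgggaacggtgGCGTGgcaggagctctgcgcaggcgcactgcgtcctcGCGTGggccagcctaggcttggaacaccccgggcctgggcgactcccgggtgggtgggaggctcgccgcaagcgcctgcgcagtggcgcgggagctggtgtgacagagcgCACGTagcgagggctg
Bnip3, chr7:138909507-138909756, minus strand: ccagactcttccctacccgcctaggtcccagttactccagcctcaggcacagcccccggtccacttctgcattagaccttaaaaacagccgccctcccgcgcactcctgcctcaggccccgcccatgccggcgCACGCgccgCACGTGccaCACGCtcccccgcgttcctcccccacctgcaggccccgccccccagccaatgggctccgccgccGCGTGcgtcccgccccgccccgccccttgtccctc
Ankrd37, chr8:45999851-46000100, minus strand: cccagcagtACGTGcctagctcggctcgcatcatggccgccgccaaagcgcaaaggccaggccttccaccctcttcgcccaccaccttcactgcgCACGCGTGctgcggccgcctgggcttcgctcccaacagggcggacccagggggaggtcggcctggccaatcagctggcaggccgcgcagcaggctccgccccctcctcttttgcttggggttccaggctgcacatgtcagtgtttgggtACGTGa
The windows hold 1, 3, 5 and 4 matches in the order shown, and matches may overlap. At any listed start site, 35 of the 39 members with an entry (89.7%) had a match. So did 60.6% of the 9417 tested genes with an entry and 41.5% of all 27025 genes with an entry. The windows were not matched for base composition, and a match is not evidence of binding.

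Beyond the members, 94 further genes of glucose transport, glycogen, pentose phosphate and hypoxia were listed with earlier results of these data known. Of these 88 had a row and 75 were tested by edgeR. At an adjusted p under 0.05 none of them was called in either direction by edgeR (0 of 75), and 4 were higher and 6 lower by its unadjusted p under 0.05. DESeq2 called 2 higher, Gys1 and Brp44, and 4 lower, Pdk1, Slc16a1, Ak4 and Pgm2l1. Over all genes DESeq2 called 3.12% higher and 2.73% lower. The median log2 fold change of the further genes was 0.03. In their list of hypoxia-induced genes 14 log2 fold changes lay above 0 and 14 below, with a median of -0.02. Of that list DESeq2 called 1 higher, Gys1, and 2 lower, Pdk1 and Ak4.

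Pdk1, the HIF-induced kinase that shuts pyruvate dehydrogenase and so keeps pyruvate out of the citric acid cycle, had 85.07 and 84.96 CPM in the Msi2 -/- libraries and 131 and 125 CPM in the controls. The groups lay far apart relative to their spread (log2 fold change -0.59 with SE 0.066, adjusted p = 0.259 by edgeR and 1.65e-09 by DESeq2). It was called by DESeq2 in 4 of 4 comparisons with a library left out. Slc16a1, for the lactate and pyruvate transporter MCT1, had 120 and 123 CPM in Msi2 -/- cells and 159 and 168 CPM in controls (log2 fold change -0.43 with SE 0.068, adjusted p = 0.271 by edgeR and 6.59e-05 by DESeq2). Ak4, a mitochondrial adenylate kinase gene that HIF induces, had 9.05 and 6.90 CPM in Msi2 -/- cells and 15.3 and 14.1 CPM in controls (log2 fold change -0.88, SE 0.203, DESeq2 adjusted p = 0.00619). DESeq2 still called Slc16a1 in 2 and Ak4 in 1 of the 4 comparisons with a library left out.

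Gys1, for the glycogen synthase of muscle and most other tissues, was higher by DESeq2, with 122 and 127 CPM in Msi2 -/- cells and 93.3 and 84.3 CPM in controls (log2 fold change 0.49 with SE 0.08, adjusted p = 0.271 by edgeR and 0.000192 by DESeq2, called in 3 of 4 comparisons with a library left out). Brp44, now named Mpc2, a subunit of the mitochondrial pyruvate carrier, had 76.8 and 52.4 CPM in Msi2 -/- cells and 39.7 and 38.4 CPM in controls (log2 fold change 0.73, SE 0.204, DESeq2 adjusted p = 0.0259, called in 1 of 4). Its log2 fold change was 0.43 without Msi2 -/- replicate 1. Pgm2l1, which makes glucose 1,6-bisphosphate, had 25.9 and 30.6 CPM in Msi2 -/- cells and 39.5 and 51.2 CPM in controls (log2 fold change -0.68, SE 0.176, DESeq2 adjusted p = 0.0218, called in 2 of 4). In the remaining lists the smallest p by DESeq2 were those of Idh1 (log2 fold change 0.18, adjusted p = 0.62) and Crebbp (0.29, adjusted p = 0.249). Slc2a1, the main glucose transporter of blood cells, had 96.01 and 69.5 CPM in Msi2 -/- cells and 92.9 and 59.8 CPM in controls, with overlap. Slc2a1 was chosen after its values were seen.

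**Figure D5:**
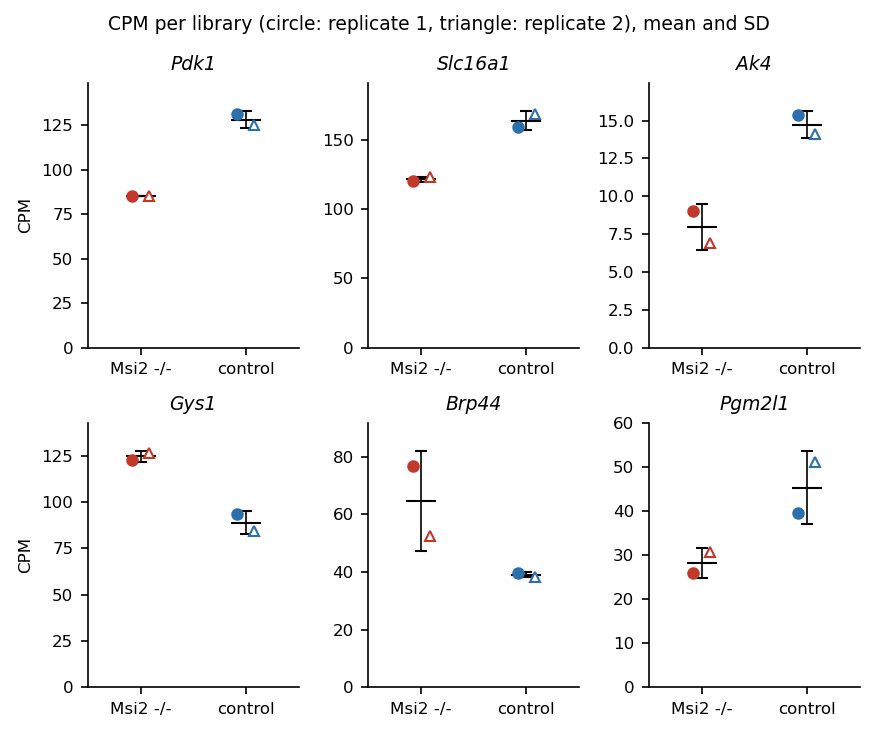
CPM of 6 pathway genes outside the member list that DESeq2 called, in each library (circle for replicate 1, triangle for replicate 2) with the group mean and SD, Msi2 -/- in red and control in blue. Pdk1 lies at 85.07 and 84.96 CPM in Msi2 -/- cells and 131 and 125 CPM in controls, and Brp44 shows unequal Msi2 -/- libraries.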

How the data were processed

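The authors deposited 1 table of counts per library, with whole, unscaled read counts for gene symbols. The submitters' processing notes name Trimmomatic, STAR, HTSeq and DESeq and the build mm9, with no version. Neither annotation nor strand setting is stated, so reads of overlapping or antisense genes may be mixed. The last 5 rows of each table name no gene. They took 19.1% to 20.1% of the counts and were left out.

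The main test was edgeR 4.0.16 under R 4.3.3, with filterByExpr (minimum count 10, total 15), TMM scaling, the quasi-likelihood fit with group as the only term, two-sided, and Benjamini-Hochberg adjustment over all 13215 genes. The 41 members with a row all passed the filter. SE and 95% intervals follow from the quasi-likelihood F statistic. DESeq2 1.42.0 (Wald test, no shrinkage) gave an adjusted p for 13281 genes, and limma 3.58.1 supplied voom. Both tests were tested on 1 set of simulated data, where false calls took a larger share of DESeq2's calls than of edgeR's. Its counts were drawn with dispersions that edgeR had estimated, and its planted changes were larger than that of any member. It therefore cannot rank the tests for differences as small as those of the members. The share of changed genes that each test missed is not given. Because the changes in that set were simulated, it does not show which calls of either test are false in the mouse libraries.

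Groups came from the titles. Replicates are separate mice per the design text. The number that opens each library name is common to a group, with no meaning given; were it a batch, it could not be told apart from genotype. The members and lists were chosen with earlier results of these data known. Described in full were Msi2, members with an edgeR unadjusted p or a DESeq2 adjusted p under 0.05, Hk2, Pfkp, Gapdh, Pkm2, Ldha, G6pdx, Hif1a, Vegfa and Bnip3, and up to 4 DESeq2 calls per further list, or else its gene of smallest p. Other members are given by role. Under 1 CPM in every library were 6 of 7 B cell, 7 of 9 T and NK cell, 7 of 8 endothelial and stromal and 2 of 6 megakaryocyte markers. Promoter sequences are from RefSeq (GRCm38.p6). The alternatives tried are given in the closing section.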

Additional observations from a re-analysis of the deposited data

How the results depend on the processing

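The count of 0 members called by edgeR held under RLE and upper-quartile scaling, no filter on low counts, a filter at 1 CPM in 2 libraries, limma-voom, the replicate block and each left-out library. Only DESeq2 differed, with 1 member higher. Over all genes it called 414 higher and 362 lower, and among the further pathway genes 2 higher and 4 lower. The main edgeR fit called 0 higher and 1 lower of all 13215 tested genes. A count of 0 among the members therefore says little about them. Over all genes the number lower, 1 in edgeR, was 6 with no filter on low counts and 0 with limma-voom. With the replicate block it was 0. The difference of replicate 1 from replicate 2 in Msi2 -/- cells was nearly uncorrelated with that in controls (correlation 0.01 over 13215 genes). A single value over all genes cannot exclude a pairing of the libraries that touches only some genes. With a library left out, edgeR called 0 to 23 genes higher and 0 to 83 lower, and among the further pathway genes 0 to 1 higher. That gene, Ero1l without Msi2 -/- replicate 2, was chosen after its values were seen. The members' median log2 fold change was 0.07, ran from 0.0059 without control replicate 2 to 0.13 without control replicate 1, and lay between 0.05 and 0.08 with all 4 libraries under other scalings, filters, tools and the block. At an unadjusted p under 0.05 the 3 members higher and 1 lower were 1 and 2 with the block, and 0 to 6 and 1 to 4 with a library left out. DESeq2 with a library left out was added after the data were seen. It called 289 genes higher and 334 lower without Msi2 -/- replicate 1, 302 higher and 604 lower without Msi2 -/- replicate 2, 221 higher and 171 lower without control replicate 1, and 102 higher and 93 lower without control replicate 2. Of the further pathway genes it called, in the same order, 3 higher and 3 lower, 5 higher and 6 lower, 3 higher and 4 lower, and 0 higher and 1 lower. Of the members it called 0 to 4 higher and 0 to 2 lower. The members were Hk1, Aldoc, G6pdx and Ndrg1 without Msi2 -/- replicate 1, Hk3 and Egln3 (lower) without replicate 2, and Gpi1 without control replicate 1. Of 21 named genes 4 changed sign in some setting, Ldha, G6pdx, Vegfa and Bnip3, each only with a library left out. With 1 mouse left in a group, its spread is assumed to be that of the other group. Adm, with 4 to 16 counts a library, is the member nearest to the floor of 3 counts.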
